A study of Mus musculus with 6 samples.

Results

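Described here are the genes for interleukins, their receptors, their antagonists and the colony-stimulating factors, in purified colonic crypt cells. They were chosen by gene symbol alone: symbols of the form Il followed by a number, with or without further letters, together with other family members by symbol, among them Il6st, Crlf2, Csf1, Csf2, Csf3, the Csf2ra and Csf2rb genes and Csf3r. Il1b, Il18 and Il33 were set aside by the rule. It found 91 of the 55487 genes in the count files, with 89 symbols, since Il11ra2 has 3 entries. Of the 91, 50 had at least 10 counts in 3 or more libraries and 41 did not.

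Interleukins are small secreted proteins through which cells of the immune system and of barrier tissues signal to one another, and most act through receptors built of a private chain that recognises the ligand and a shared chain that carries the signal. Common gamma chain, gp130 and beta common chain receptors signal through JAK kinases and STAT factors, whereas receptors of the interleukin 1 and interleukin 17 families recruit adaptor proteins that lead to NF-kB. In the colon, crypt epithelial cells carry receptors for cytokines made by lymphocytes and myeloid cells beneath them and make some cytokines and decoys themselves.

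The series compared polyadenylated RNA of colonic crypt cells from C57BL/6 mice, aged 4 weeks. The 3 control libraries came from mice labelled M14(f/f), whose M14 alleles carry loxP sites, and the 3 mutant libraries from mice labelled M14(f/f);Villin-Cre. M14 is read here as Mettl14, a subunit of the m6A methyltransferase, which methylates adenosines in RNA, and Villin-Cre expresses Cre recombinase in gut epithelium. Only mutants carried Cre, so the effects of Cre and of Mettl14 loss cannot be told apart, and cells without Villin keep the gene. Which exons were flanked is not stated, and reads from the other exons still count for the gene. Mettl14 stood at 26.1, 20.8 and 22.002 CPM (counts scaled to library size by TMM) in control 1, 2 and 3, and at 13.97, 13.8 and 10.5 CPM in mutant 1, 2 and 3. The log2 fold change, mutant minus control throughout, was -0.85 (SE 0.13, adjusted p = 6.22e-04 by edgeR, n = 3 libraries per group).

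Library totals ran from 24181631 to 35183636 counts, at which 3 counts correspond to 0.0819 to 0.120 CPM. Markers of colon epithelium summed to 11990 to 13117 CPM in controls and 9532 to 11199 CPM in mutants, against at most 74.7 CPM for macrophages and dendritic cells. Fibroblast markers summed to 203 to 235 CPM in controls and 108 to 124 CPM in mutants, with 4 of 7 lower and 1 higher, and endothelial markers to 10.4 to 11.3 CPM and 19.7 to 21.8 CPM, with 2 of 5 higher. Of all genes tested, 23.5% were higher and 22.8% lower. The part of these cells in the results was not tested. A pair of mutant libraries stood apart by sex-linked genes. Xist, which is expressed from an inactive X chromosome, lay between 1.28 and 1.77 CPM in the other 4 libraries but at 651 CPM in mutant 1 and 53.1 CPM in mutant 2. Summed over 4 Y-linked genes, mutant 1 held 1.03% of the control mean, mutant 2 held 71.2% and mutant 3 held 80.0%. Values without mutants 1 and 2 are therefore given beside the results that they change. The mice are described as 3 pairs, without naming the pairs. In these bulk samples fewer cells of a type and less RNA per cell cannot be told apart.

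More of these genes were higher than lower in mutants. Of the 91 genes 53 had enough counts to be tested, and 32 rose, 7 fell and 14 did not pass an adjusted p of 0.05 (edgeR's quasi-likelihood test, adjusted over 18539 genes). Across all genes tested 46.3% were called, 23.5% higher and 22.8% lower. By more than 2-fold 26 of the 53 were higher and 3 lower, beside 10.5% and 6.05% of all genes. The median log2 fold change was 1.01 over the 53 and 0.01 over all genes tested. Of the 53, 32 passed the count filter through the controls and the mutants alike, and among these 17 rose, 6 fell and 9 did not pass. A further 16 passed it through the mutants only, so that the filter itself favoured a higher level there. These were Il1a, Il1f8, Il1r2, Il1rl1, Il18rap, Il1bos, Il11, Il2rg, Il7r, Il10ra, Il17c, Il17d, Il23a, Il5ra, Csf2rb2 and Csf3r. Those that fell included Il15, Il22ra1, Il17rd, Il1rl2, Il6ra and Il17rb. Without mutants 1 and 2 the counts were 28 higher and 4 lower of 58 tested, beside 16.2% higher and 17% lower of all 20731 genes tested then. The calls lost included those of Il1r2, Il1r1, Il1rl2, Il1rl1, Il18r1, Il17re, Il17c and Il17rb, none of which changed direction. The 58 tested then include genes that the main filter removed. The genes called then need not all be among those called with all libraries. Mutant 3 is then the only mutant and takes its spread from the controls.

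Receptor chains made up most of the tested genes and also most of those that rose. Of 35 tested receptor genes 21 rose, 5 fell and 9 did not pass. Of 13 tested ligand genes 6 rose, 2 fell and 5 missed the threshold, and all 3 tested antagonists or decoys rose. Part of these rises came from genes that passed the count filter through the mutants only, which favoured a higher level there. Among ligands and decoys these were Il1a, Il1f8, Il17c, Il17d, Il23a and Il1r2. Among receptors they were Il1rl1, Il18rap, Il2rg, Il7r, Il10ra, Il5ra, Csf2rb2 and Csf3r. Over all genes tested 23.5% were higher and 22.8% lower. A further 25 of 38 ligand genes had too few counts to be tested. Summed over all 91 genes, the level was 540 to 580 CPM in controls and 934 to 1014 CPM in mutants. The receptor genes gave 484 to 520 CPM in controls and 733 to 756 CPM in mutants, and the groups did not overlap. The ligand genes gave 32.4 to 34.4 CPM in controls and 31.5 to 45.2 CPM in mutants, so the groups overlapped. All mutants lay above all controls for 34 of the 53 tested genes and below them for 10, beside 28.7% and 28.2% of all genes tested, 56.9% together. The 53 include the 16 genes that passed the count filter through the mutants only.

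**Figure D1:**
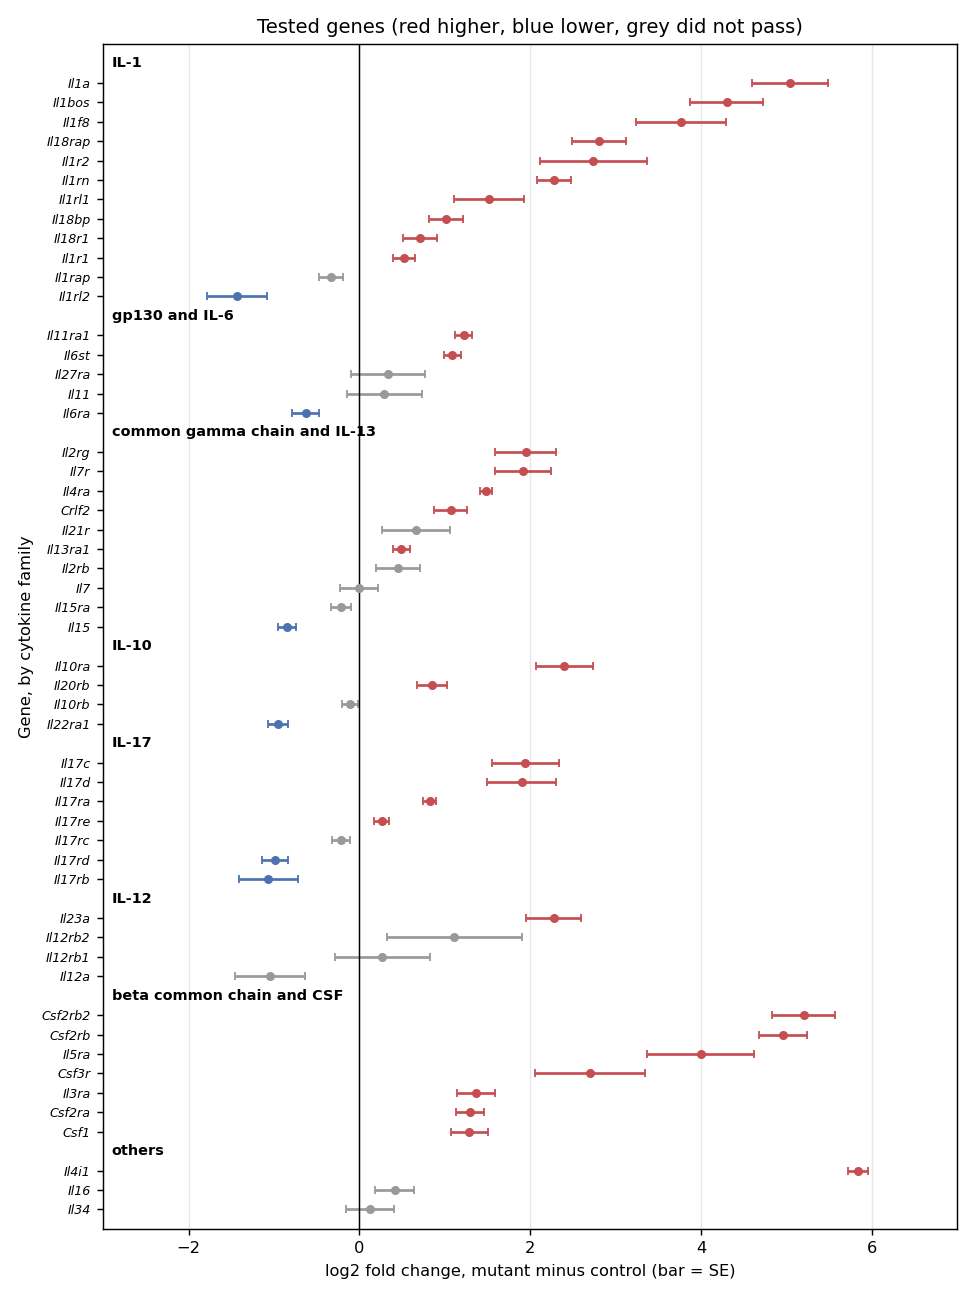
Log2 fold changes (mutant minus control, horizontal axis) of tested genes by cytokine family (vertical axis), each with its SE as a bar. Red points passed the test as higher, blue as lower, and grey did not pass. All 7 tested genes of the beta common chain and colony-stimulating factor family lie above 0. Of these, Csf2rb2, Il5ra and Csf3r passed the count filter through the mutants only. The gp130 and interleukin 17 families have points on either side.

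For a view of the DNA beside these genes, the 250 bases before the RefSeq start (GRCm38.p6) were searched on both strands for 3 short motifs: a kB motif GGNNTTTCC, a STAT motif TTCNNNGAA and an AP-1 motif TGANTCA. The kB motif was shortened to this form after matches to a longer form had been seen. RefSeq promoters were found for 69 of the 89 symbols. They included 28 of the 32 genes that rose, of which 3 held a kB match, 5 a STAT match and 4 an AP-1 match in at least 1 of their promoters (10.7%, 17.9% and 14.3%). Of 5 promoters of genes that fell, 1 held a kB match, none a STAT match and 2 an AP-1 match. Among 8 genes with a promoter that did not pass, 2 held a kB match, 1 a STAT match and 3 an AP-1 match. For the 28 genes with a promoter that were not tested for a change, the numbers were 4, 4 and 5. Over all 27025 genes the shares with a kB, STAT and AP-1 match were 5.62%, 8.13% and 7.82%. Matches were thus not confined to the genes that rose, and a difference between these sets was not tested. A match is a run of letters and not a measured binding site. The windows shown belong to Il4i1, Csf2rb2, Il1a, Il1rn, Csf1 and Il22ra1, picked after their values were seen as genes of different families with a clear change. For a gene with several starts the window with most matches is shown. Matches are in capitals, and no 2 matches overlap.
Il4i1 (chr7:44836038-44836287, plus strand): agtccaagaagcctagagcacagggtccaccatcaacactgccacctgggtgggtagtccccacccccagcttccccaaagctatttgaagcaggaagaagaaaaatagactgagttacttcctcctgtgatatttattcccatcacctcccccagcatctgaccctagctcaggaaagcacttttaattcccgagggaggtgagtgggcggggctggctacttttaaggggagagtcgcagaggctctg
Csf2rb2 (chr15:78305722-78305971, minus strand): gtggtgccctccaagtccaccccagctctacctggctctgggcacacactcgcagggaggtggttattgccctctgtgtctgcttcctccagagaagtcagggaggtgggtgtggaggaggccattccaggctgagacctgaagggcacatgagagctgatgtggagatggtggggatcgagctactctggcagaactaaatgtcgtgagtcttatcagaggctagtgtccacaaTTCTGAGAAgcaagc
Il1a (chr2:129309973-129310222, minus strand): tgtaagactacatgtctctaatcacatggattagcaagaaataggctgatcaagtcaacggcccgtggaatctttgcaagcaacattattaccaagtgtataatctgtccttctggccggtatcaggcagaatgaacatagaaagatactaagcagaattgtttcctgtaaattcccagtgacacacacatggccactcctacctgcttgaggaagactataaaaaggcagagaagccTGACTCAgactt
Il1rn (chr2:24336610-24336859, plus strand): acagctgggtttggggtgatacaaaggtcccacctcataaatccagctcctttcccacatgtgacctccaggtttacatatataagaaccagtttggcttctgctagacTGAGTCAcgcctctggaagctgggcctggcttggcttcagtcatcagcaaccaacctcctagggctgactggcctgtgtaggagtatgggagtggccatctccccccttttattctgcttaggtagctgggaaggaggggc
Csf1 (chr3:107760470-107760719, minus strand): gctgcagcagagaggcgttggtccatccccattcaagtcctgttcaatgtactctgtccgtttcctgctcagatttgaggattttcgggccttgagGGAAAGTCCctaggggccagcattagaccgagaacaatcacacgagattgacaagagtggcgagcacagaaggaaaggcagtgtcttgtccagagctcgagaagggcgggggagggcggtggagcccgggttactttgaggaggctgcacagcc
Il22ra1 (chr4:135727909-135728158, plus strand): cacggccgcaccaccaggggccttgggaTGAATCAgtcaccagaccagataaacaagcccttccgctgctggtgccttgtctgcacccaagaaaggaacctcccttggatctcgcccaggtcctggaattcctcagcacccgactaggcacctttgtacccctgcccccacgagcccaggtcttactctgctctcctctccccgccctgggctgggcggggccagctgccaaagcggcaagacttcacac
The window of Csf2rb2 held a STAT match 15 to 7 bases before the start. That of Il1a held an AP-1 match 12 to 6 bases before it, that of Il1rn an AP-1 match 141 to 135 bases before it, and that of Il22ra1 an AP-1 match 222 to 216 bases before it. The kB match of Csf1 lay 154 to 146 bases before the start. The Il4i1 window, which lies inside the longer gene interval of the count files, held none of the 3 motifs.

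The tested genes of the beta common chain family moved in 1 direction. This family holds the receptors for interleukin 3, interleukin 5 and GM-CSF, which share the chain encoded by Csf2rb, and is described here with the colony-stimulating factors, the growth factors of myeloid cells. All 7 tested genes rose, beside 23.5% of all genes tested. Of the 7, Csf2rb2, Il5ra and Csf3r passed the count filter through the mutants only, which favoured a higher level there. The 4 others, the ligand genes Il3, Il5, Csf2 (GM-CSF) and Csf3 (G-CSF), had at most 5 counts in any library. Csf2rb (chromosome 15, 78325752 to 78353847) stood at 0.855, 0.741 and 0.8698 CPM in the controls and 35.97, 22.7 and 18.4 CPM in the mutants (log2 fold change 4.96, SE 0.28, adjusted p = 1.41e-06). Csf2rb2 (78282507 to 78305721), its mouse-specific neighbour that serves the interleukin 3 receptor, stood at 0.598, 0.148 and 0.225 CPM and 15.4, 11.4 and 9.91 CPM (log2 fold change 5.20, SE 0.37, adjusted p = 5.84e-06). In either gene every mutant was far above every control, with mutant 1 the highest. Control 1 held the highest level of Csf2rb2 among controls, and without it the log2 fold change was 6.00. About 18.4% of the Csf2rb transcript and 19.4% of the Csf2rb2 transcript is made of runs of 50 bases found elsewhere, chiefly in the other gene, so reads from those parts can go uncounted and the split between the pair is uncertain.

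The private alpha chains of these receptors rose as well. Csf2ra, the GM-CSF receptor alpha chain (chromosome 19, 61223957 to 61228429), stood at 16.2, 16.98 and 21.3 CPM in the controls and 34.96, 55.3 and 43.4 CPM in the mutants (log2 fold change 1.30, SE 0.16, adjusted p = 1.70e-04). Il3ra, the alpha chain for interleukin 3, stood at 1.99, 1.39 and 1.42 CPM and 3.59, 4.83 and 3.96 CPM (log2 fold change 1.36, SE 0.22, adjusted p = 8.59e-04). The libraries did not overlap between groups for either gene, and mutant 2 was the highest for each. Il5ra, the alpha chain for interleukin 5, rested on 3, 4 and 1 counts in controls and 13, 40 and 68 counts in mutants, or 0.0855, 0.119 and 0.0322 CPM and 0.502, 1.598 and 1.86 CPM (log2 fold change 3.996, SE 0.62, adjusted p = 6.44e-04). Its control level is near that of a few counts, so the size of the fold is imprecise. Csf1, the macrophage growth factor, stood at 1.79, 2.07 and 2.22 CPM and 3.78, 5.99 and 5.08 CPM (log2 fold change 1.29, SE 0.21, adjusted p = 9.41e-04). Csf3r, the G-CSF receptor of neutrophils, had group means of 0.142 ± 0.101 CPM in the controls and 0.913 ± 0.545 CPM in the mutants (SD, n = 3; log2 fold change 2.70, SE 0.64, adjusted p = 0.00665), and its log2 fold change was 3.33 without mutants 1 and 2. Csf1r, the receptor for Csf1 that lies outside the symbol rule, rose in the same libraries (log2 fold change 2.19, SE 0.20, adjusted p = 2.83e-05).

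Beside these receptors, marker genes of macrophages and dendritic cells were higher in mutants. Of 13 tested markers among 14, 12 rose and C1qa fell, beside 23.5% higher and 22.8% lower of all genes tested. The summed level of the 14 was 19.7 to 26.4 CPM in controls and 52.4 to 74.7 CPM in mutants. Cd209a, at 0 in all controls and at most 0.160 CPM in mutants, had too few counts to be tested. Markers of M cells, the epithelial cells that sample the gut lumen, all 6 rose, from a summed 104 to 111 CPM to 523 to 588 CPM. Neutrophil markers summed to 8.97 to 13.2 CPM and 12.2 to 35.4 CPM, mostly Ly6g. Of these 8 markers only 2 had enough counts to be tested, of which 1 rose and 1 did not pass. Elane, at 0 in all controls and at most 0.0546 CPM in mutants, was not among the 2. The part of any of these cells in the rise of the receptor genes was not tested.

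**Figure D2:**
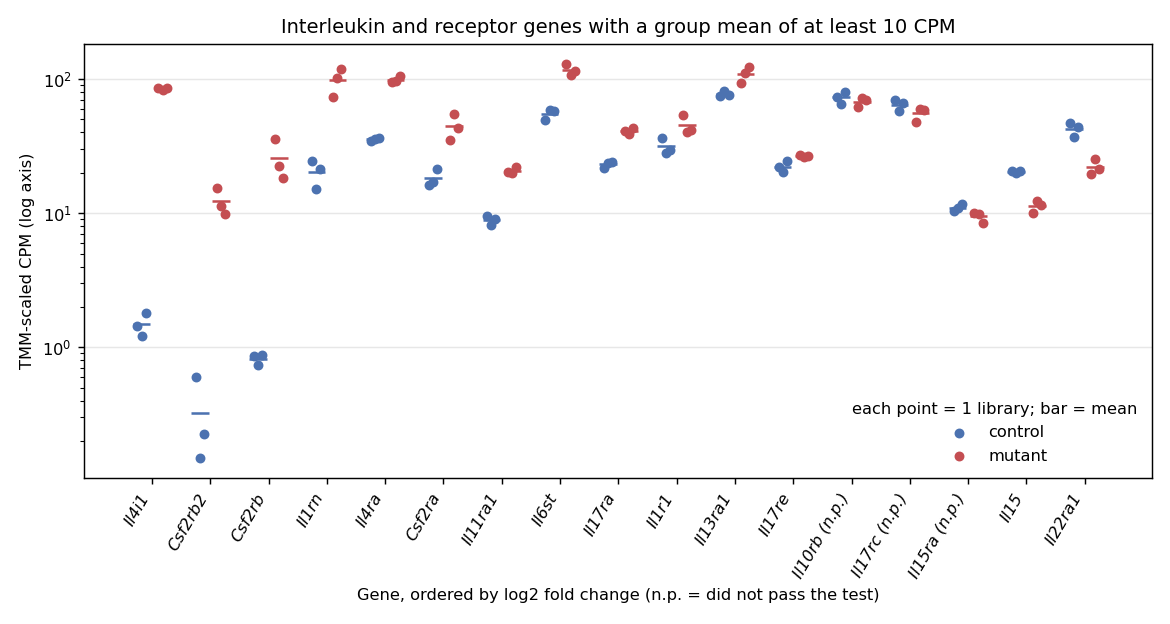
TMM-scaled CPM (vertical log axis) in each of the 6 libraries for the 17 genes with a mean of at least 10 CPM in either group, ordered along the horizontal axis by log2 fold change. Points are libraries, blue for controls and red for mutants, and short bars are group means; Il4i1, Csf2rb2 and Csf2rb stand farthest apart between the groups, while the groups overlap for Il10rb and Il17rc.

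Il4i1 had the largest log2 fold change of the 53 tested genes. It carries its name because interleukin 4 induces it, and it encodes a secreted enzyme that oxidises aromatic amino acids. Il4i1 (plus strand of chromosome 7, 44816387 to 44840809) stood at 1.45, 1.21 and 1.804 CPM in the controls and 86.4, 82.99 and 86.1 CPM in the mutants (log2 fold change 5.84, SE 0.12, adjusted p = 3.40e-09). The mutants lay close together, and all stood far above the controls. Exons of Tbc1d17 on the opposite strand cover 83.9% of the exon length of Il4i1, and 97 bases are shared on the same strand with Nup62. Counting used the strand of read 1. Tbc1d17 totalled 2787 counts in controls and 1906 in mutants, and Nup62 totalled 3460 and 7493. The remaining genes outside the families, Il16, a chemoattractant for CD4 cells, and Il34, the other ligand of Csf1r, did not pass. Their group means were 1.39 ± 0.222 CPM in the controls and 1.84 ± 0.165 CPM in the mutants for Il16 and 1.34 ± 0.161 CPM in the controls and 1.46 ± 0.422 CPM in the mutants for Il34, with adjusted p = 0.175 and adjusted p = 0.742. The log2 fold change of Il34 was 0.12, and -0.07 without mutant 2.

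In the interleukin 1 family 10 of 12 tested genes rose, 1 fell and 1 missed the threshold, and 6 more had too few counts. All genes tested gave 23.5% higher and 22.8% lower. Il1a, Il1f8, Il1bos, Il1r2, Il1rl1 and Il18rap passed the count filter through the mutants only, which favoured a higher level there. Among the ligands, Il1a, an alarm signal held in the cell and released on damage, stood at 0.0855, 0.0593 and 0.0966 CPM in the controls and 1.698, 3.796 and 2.78 CPM in the mutants (log2 fold change 5.04, SE 0.45, adjusted p = 2.08e-05). Il1f8, an agonist of the interleukin 36 receptor, stood at 0.598, 0.148 and 0.354 CPM and 2.16, 6.07 and 6.88 CPM (log2 fold change 3.76, SE 0.52, adjusted p = 3.20e-04). All mutants exceeded all controls for each gene, with mutant 1 the lowest of the mutants. Controls held at most 3 counts of Il1a in any library, so the size of its fold is imprecise. Il1bos, a transcript opposite Il1b that shares only 25 exon bases with it, stood at 0.114, 0.0296 and 0.161 CPM and 1.62, 2.28 and 2.24 CPM (log2 fold change 4.30, SE 0.43, adjusted p = 4.40e-05). Il1b itself, outside the rule, stood at 0.285, 0 and 0.161 CPM and 5.83, 8.87 and 9.12 CPM with a log2 fold change of 5.69, which was 6.60 without control 1 and 5.10 without control 2.

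The antagonists of the family rose with the agonists. Il1rn encodes the interleukin 1 receptor antagonist, which occupies the receptor without signalling. It lies on chromosome 2 (24336853 to 24351494) and stood at 24.6, 15.3 and 21.3 CPM in the controls and 73.98, 103 and 119 CPM in the mutants (log2 fold change 2.28, SE 0.20, adjusted p = 1.94e-05). Il18bp, which binds interleukin 18 in solution, stood at 3.19, 4.77 and 3.77 CPM and 6.21, 8.87 and 8.55 CPM (log2 fold change 1.01, SE 0.20, adjusted p = 0.00256). The groups did not overlap for either gene. Il1r2, a decoy receptor that binds interleukin 1 without signalling, had means of 0.0904 ± 0.0786 CPM in the controls and 0.6295 ± 0.158 CPM in the mutants (SD, n = 3; log2 fold change 2.74, SE 0.63, adjusted p = 0.00569), and adjusted p = 0.0931 without mutants 1 and 2. Il18 itself fell, with 30.9, 63.5 and 45.3 CPM in the controls and 11.9, 17.8 and 11.3 CPM in the mutants, and Il33 fell too (log2 fold change -1.29, SE 0.28, adjusted p = 0.00398; adjusted p = 0.0642 without mutants 1 and 2).

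The signalling receptors of this family did not all move one way. Il1r1, the signalling receptor for interleukin 1, stood at 36.4, 28.2 and 29.7 CPM in the controls and 53.6, 40.4 and 41.6 CPM in the mutants (log2 fold change 0.52, SE 0.13, adjusted p = 0.00815; adjusted p = 0.0750 without mutants 1 and 2). Its shared partner Il1rap stood at 8.69 ± 1.18 CPM in the controls and 6.92 ± 0.324 CPM in the mutants (SD, n = 3) and did not pass (adjusted p = 0.0795; 0.0398 without control 3). Il18r1 and Il18rap form the interleukin 18 receptor. The first stood at 1.71, 1.57 and 1.45 CPM in the controls and 2.43, 2.56 and 2.76 CPM in the mutants (log2 fold change 0.71, SE 0.20, adjusted p = 0.0158), a call lost on leaving out control 3 (adjusted p = 0.0600), mutant 3 (adjusted p = 0.0568) or mutants 1 and 2 (adjusted p = 0.0834). The second stood at 0.3703, 0.207 and 0.354 CPM and 1.74, 2.44 and 2.38 CPM (log2 fold change 2.80, SE 0.32, adjusted p = 8.81e-05). Every mutant exceeded every control for each chain. Il1rl1, the interleukin 33 receptor, had means of 0.318 ± 0.187 CPM in the controls and 0.917 ± 0.0669 CPM in the mutants (log2 fold change 1.51, SE 0.41, adjusted p = 0.0127), with adjusted p = 0.0513 without control 1 and 0.0770 without mutants 1 and 2. Il1rl2, the interleukin 36 receptor, went the opposite way from its ligand Il1f8, with 0.769, 1.42 and 1.48 CPM in the controls and 0.425, 0.519 and 0.4095 CPM in the mutants (log2 fold change -1.44, SE 0.35, adjusted p = 0.00776; adjusted p = 0.0566 without mutants 1 and 2). These receptor genes lie side by side on chromosome 1 (40074079 to 40551705) in the order Il1r2, Il1r1, Il1rl2, Il1rl1, Il18r1 and Il18rap, and Il1rl2 was the 1 gene of the 6 that fell. The ligand genes Il1f8, Il1f9, Il1f6 and Il1f10 and the antagonist gene Il1f5 lie beside Il1rn on chromosome 2 (24153161 to 24351494). There Il1f8 and Il1rn rose and the other 4 had too few counts.

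In the gp130 family most receptors signal through the gp130 chain encoded by Il6st. Il6st and Il11ra1 rose, and Il6ra fell. Il6st (chromosome 13, 112464070 to 112510086) stood at 49.6, 58.6 and 57.4 CPM in the controls and 130.2, 107 and 115 CPM in the mutants (log2 fold change 1.09, SE 0.10, adjusted p = 2.00e-05). Il11ra1, the interleukin 11 receptor, stood at 9.49, 8.18 and 9.05 CPM and 20.2, 20.1 and 21.98 CPM (log2 fold change 1.22, SE 0.10, adjusted p = 1.19e-05). Mutants exceeded controls in every library for each gene. Il6ra, the interleukin 6 receptor, stood at 5.58, 7.29 and 6.67 CPM and 4.32, 4.36 and 3.96 CPM (log2 fold change -0.63, SE 0.16, adjusted p = 0.00902), and here every mutant was below every control. Of the Il11ra1 transcript 46.5% is made of runs of 50 bases shared with Il11ra2 or Gm13305, so reads from that part can go uncounted, and the 3 entries of Il11ra2 held 0 counts in all libraries.

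Among the ligands, Il11 and the receptor gene Il27ra did not pass, with group means of 0.389 ± 0.094001 CPM in the controls and 0.486 ± 0.248 CPM in the mutants for Il11 and 0.248 ± 0.0844 CPM in the controls and 0.3102 ± 0.0713 CPM in the mutants for Il27ra. Il11 had a log2 fold change of 0.29, which was -0.20 without mutant 1 and -0.28 without mutants 1 and 2. Il6, Il27, Il31 and Il31ra had too few counts to be tested. Of gp130 partners outside the rule, Lifr, which with gp130 receives leukaemia inhibitory factor, stood at 1.74, 1.84 and 1.97 CPM in the controls and 15.4, 13.5 and 17.99 CPM in the mutants (log2 fold change 3.08, SE 0.15, adjusted p = 6.60e-07). Osmr, the oncostatin M receptor, stood at 1.396, 2.73 and 2.22 CPM and 31.9, 51.2 and 63.8 CPM (log2 fold change 4.54, SE 0.29, adjusted p = 3.30e-06). For each of the pair the groups were far apart.

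Of 10 tested genes of the common gamma chain family, taken with interleukin 13 and its receptors, 5 rose, 1 fell and 4 did not pass. All genes tested gave 23.5% higher and 22.8% lower. Of those that rose, Il2rg and Il7r passed the count filter through the mutants only, which favoured a higher level there. Il4ra, the alpha chain that binds interleukin 4 and also serves interleukin 13 (chromosome 7, 125552120 to 125579474), stood at 34.8, 35.5 and 36.2 CPM in the controls and 95.6, 96.8 and 105 CPM in the mutants (log2 fold change 1.48, SE 0.07, adjusted p = 4.49e-07). Its partner in non-haematopoietic cells, Il13ra1, on the X chromosome, stood at 75.4, 81.2 and 76.4 CPM and 93.4, 110.5 and 123.05 CPM (log2 fold change 0.49, SE 0.10, adjusted p = 0.00291). The lowest mutant exceeded the highest control for each chain, by the wider margin for Il4ra. Their ligand genes Il4 and Il13, next to each other on chromosome 11, had at most 4 counts in any library.

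Il2rg, the X-linked common gamma chain, stood at 0.427, 0.207 and 0.483 CPM in the controls and 1.78, 1.398 and 1.17 CPM in the mutants (log2 fold change 1.94, SE 0.36, adjusted p = 0.00175; adjusted p = 0.0442 without mutants 1 and 2). Il7r, the interleukin 7 receptor of lymphocytes, stood at 0.3703, 0.207 and 0.322 CPM and 1.04, 1.24 and 1.15 CPM (log2 fold change 1.91, SE 0.33, adjusted p = 0.00112). Crlf2, the chain that with Il7r receives thymic stromal lymphopoietin, stood at 4.56, 2.84 and 3.54 CPM and 6.87, 8.47 and 7.67 CPM (log2 fold change 1.07, SE 0.19, adjusted p = 0.00148). The groups did not overlap for these 3 genes. Exon sequence of Il2rg is shared on the same strand with Gm20489 (30.5% of its exon length), so its level is uncertain. Markers of T cells, NK cells and innate lymphoid cells summed to 61.2 to 76.2 CPM in controls and 80.4 to 95.2 CPM in mutants. Of 13 tested markers 3 rose, 1 fell and 9 did not pass, beside 23.5% higher and 22.8% lower of all genes tested. Their part in the rise of the lymphocyte receptors was not tested.

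Il15, which maintains intraepithelial lymphocytes, was the highest ligand gene per length in controls and fell in mutants. It lies on the minus strand of chromosome 8 (82331632 to 82403222) and stood at 20.5, 20.1 and 20.6 CPM in the controls and 9.96, 12.4 and 11.5 CPM in the mutants (log2 fold change -0.85, SE 0.10, adjusted p = 1.22e-04). Controls lay within 1 CPM of each other and every mutant was below them. Its receptor chain Il15ra stood at 10.4, 11.02 and 11.6 CPM and 10.03, 9.91 and 8.44 CPM and did not pass (adjusted p = 0.149), although the groups did not overlap. Il2rb, the other chain of the interleukin 15 receptor, had means of 1.86 ± 0.541 CPM in the controls and 2.56 ± 0.318 CPM in the mutants (adjusted p = 0.177). Il7, a lymphocyte growth factor, had means of 5.04 ± 1.52 CPM in the controls and 5.04 ± 0.583 CPM in the mutants (adjusted p = 0.987), and Il21r had means of 0.362 ± 0.0419 CPM in the controls and 0.584 ± 0.257 CPM in the mutants (adjusted p = 0.208). A p above the threshold does not show that the levels were equal.

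The interleukin 10 family includes the cytokines, such as interleukin 22, that act on epithelium. None of its 5 ligand genes (Il10, Il19, Il20, Il22 and Il24) had more than 4 counts in any library. Il22ra1, the epithelial receptor chain for interleukin 22 (chromosome 4, 135728172 to 135752140), stood at 46.8, 37.2 and 44.3 CPM in the controls and 19.6, 25.6 and 21.3 CPM in the mutants (log2 fold change -0.95, SE 0.12, adjusted p = 1.52e-04). Its partner Il10rb stood at 73.8, 65.3 and 80.4 CPM and 61.9, 72.7 and 69.4 CPM and did not pass (log2 fold change -0.11, SE 0.09, adjusted p = 0.383). Every mutant was below every control for Il22ra1, whereas the groups overlapped for Il10rb. Il20rb, a chain of receptors for interleukins 19, 20 and 24, stood at 2.59, 2.55 and 2.996 CPM and 4.32, 4.91 and 5.41 CPM (log2 fold change 0.85, SE 0.17, adjusted p = 0.00296). Il10ra, the private chain of the interleukin 10 receptor on immune cells, stood at 0.256, 0.415 and 0.451 CPM and 1.43, 2.198 and 2.29 CPM (log2 fold change 2.40, SE 0.33, adjusted p = 2.94e-04). In these 2 genes every mutant was above every control. Of the Il10rb transcript 29.0% is shared in runs of 50 bases with Gm21970, which held 0 counts. Il20ra and the soluble decoy Il22ra2 had too few counts to be tested.

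Receptor chains of the interleukin 17 family also went both ways. Of 5 tested, 2 rose, 2 fell and 1 missed the threshold, beside 23.5% higher and 22.8% lower of all genes tested. Both tested ligand genes rose, and both had passed the count filter through the mutants only. Il17ra, the chain shared by these receptors (chromosome 6, 120463247 to 120487559), stood at 21.9, 23.6 and 23.9995 CPM in the controls and 40.9, 38.8 and 43.1 CPM in the mutants (log2 fold change 0.82, SE 0.08, adjusted p = 2.60e-05). Il17rc, its partner for interleukins 17A and 17F, stood at 69.8, 57.7 and 65.9 CPM and 47.7, 59.9 and 58.97 CPM and did not pass (log2 fold change -0.21, SE 0.10, adjusted p = 0.119; 0.0325 in the fit without a low-count filter). Il17re, its partner for the epithelial cytokine interleukin 17C, stood at 22.2, 20.2 and 24.4 CPM and 27.3, 26.1 and 26.5 CPM (log2 fold change 0.26, SE 0.09, adjusted p = 0.0334). Every mutant exceeded every control for Il17ra and, by a small margin, for Il17re, and the groups overlapped for Il17rc. The Il17re call was lost without any library other than control 3 (adjusted p between 0.0716 and 0.130), by DESeq2 (adjusted p = 0.122), without mutants 1 and 2 (adjusted p = 0.226) with DESeq2's size factors in edgeR (adjusted p = 0.0612) and in the fit without a low-count filter (adjusted p = 0.139).

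Il17rd, which also restrains fibroblast growth factor signalling, stood at 5.53, 6.07 and 5.64 CPM in the controls and 2.86, 2.997 and 2.81 CPM in the mutants (log2 fold change -0.99, SE 0.15, adjusted p = 5.71e-04). Il17rb, the receptor for interleukin 25 from tuft cells, stood at 1.62, 1.33 and 1.901 CPM and 0.386, 1.04 and 0.874 CPM (log2 fold change -1.07, SE 0.35, adjusted p = 0.0304). Mutants were below controls for each gene, but the Il17rb call was lost without control 1, control 3, mutant 1 or mutant 3 (adjusted p between 0.0566 and 0.0888) and without mutants 1 and 2 (adjusted p = 0.114). Among the ligands, Il17c had means of 0.218 ± 0.0625 CPM in the controls and 0.865 ± 0.246 CPM in the mutants (log2 fold change 1.94, SE 0.39, adjusted p = 0.00292; adjusted p = 0.107 without mutants 1 and 2) and Il17d had means of 0.242 ± 0.108 CPM in the controls and 0.901 ± 0.1805 CPM in the mutants (log2 fold change 1.90, SE 0.41, adjusted p = 0.00394). Il17a, Il17b, Il17f and Il25 had too few counts to be tested. Tuft cell markers summed to 54.1 to 57.7 CPM in controls and 28.4 to 32.4 CPM in mutants. Of the 8 markers, 6 were lower and 1 higher, beside 22.8% lower and 23.5% higher of all genes tested. The part of tuft cells in the level of Il17rb was not tested.

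In the interleukin 12 family, whose members pair subunits to make interleukins 12 and 23, 1 of 4 tested genes rose and 3 did not pass. Across all genes tested 23.5% were higher and 22.8% lower. Il23a passed the count filter through the mutants only, which favoured a higher level there, and Il12a through the controls only. Il23a, the private subunit of interleukin 23, stood at 0.484, 0.533 and 0.2899 CPM in the controls and 2.12, 2.68 and 1.64 CPM in the mutants (log2 fold change 2.27, SE 0.32, adjusted p = 3.66e-04), and the groups did not overlap. Il12a, the private subunit of interleukin 12, had means of 0.4101 ± 0.0507 CPM in the controls and 0.203 ± 0.0574 CPM in the mutants (adjusted p = 0.0625). The receptor chains Il12rb1 and Il12rb2 had means of 0.317 ± 0.215 CPM in the controls and 0.394 ± 0.197 CPM in the mutants for Il12rb1 and 0.208 ± 0.2101 CPM in the controls and 0.461 ± 0.386 CPM in the mutants for Il12rb2, with adjusted p = 0.721 and adjusted p = 0.279. Without mutants 1 and 2 their log2 fold changes were -0.40 and -0.60, on the other side of 0; that of Il12rb1 was also below 0 without mutant 1 or control 3 (-0.20 and -0.05). Of the exon length of Il12rb2 40.04% lies opposite exons of Serbp1. Il23r and Il12b had too few counts to be tested.

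Levels of different genes were compared per kilobase of exon, as RPKM (TMM-scaled CPM per kilobase). In controls the order was led by receptor chains: Il17rc at 24.1 ± 2.31, Il13ra1 at 20.9 ± 0.835, Il10rb at 19.2 ± 1.99, Il22ra1 at 16.7 ± 1.93 and the ligand Il15 at 9.02 ± 0.113 RPKM (SD, n = 3). The intervals of mean ± SD overlapped for Il13ra1 and Il10rb and for Il10rb and Il22ra1. In mutants the order ran Il13ra1 (29.4 ± 4.02 RPKM), Il4i1 (20.9 ± 0.461), Il17rc (20.8 ± 2.53), Il10rb (17.9 ± 1.46), Il1rn (17.8 ± 4.14), Il4ra (16.5 ± 0.873) and Csf2ra (15.5 ± 3.55). From Il4i1 to Csf2ra each neighbouring pair had overlapping intervals. Il22ra1 went from rank 4 to rank 9 and Il15 from rank 5 to rank 12. Of the 32 genes that rose 16 had a mean under 1 CPM in controls, so their folds start from a low level.

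**Figure D3:**
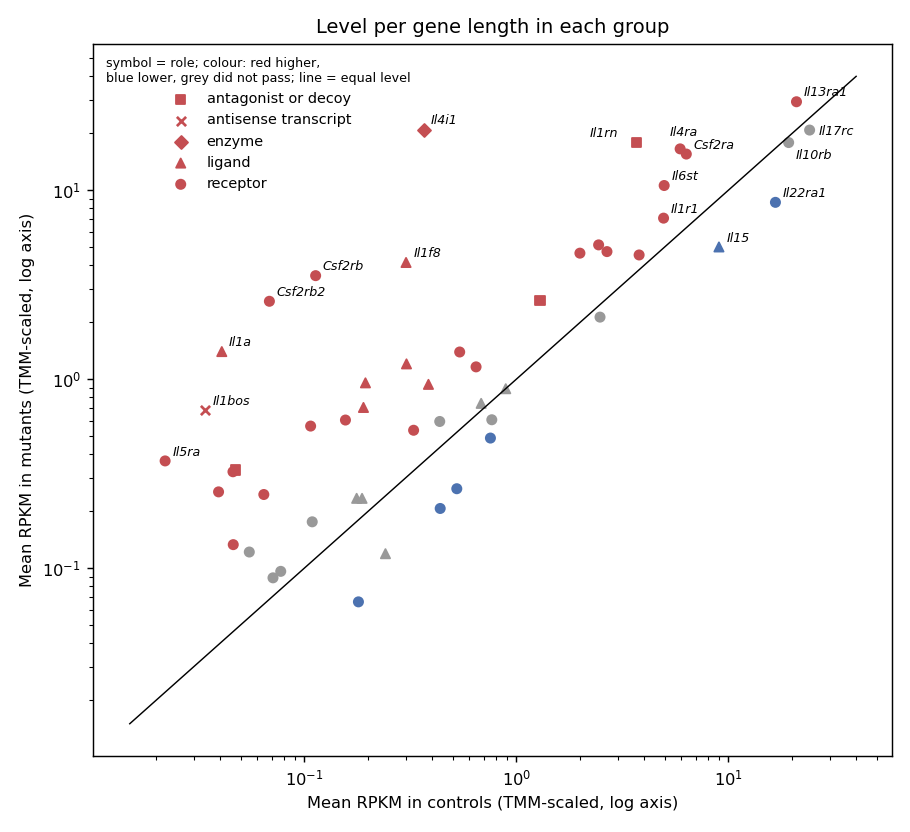
Mean RPKM in controls (horizontal log axis) against mean RPKM in mutants (vertical log axis) for tested genes, with a line of equal level. Marker shape gives the role and colour the call; Il17rc and Il10rb lie near the line at the top, Il22ra1 and Il15 below it, and Il4i1, Csf2rb and Csf2rb2 far above it.

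The 38 genes not tested had at most 25 counts in any library, and 4 of them held 0 counts in all libraries (Il1f10 and the 3 entries of Il11ra2). With no filter on low counts, 34 of them could be fitted among 43508 genes, and edgeR called 4 higher and none lower. In that fit 2.41% of the 24969 genes that the filter removes were called higher and 0.481% lower. Its adjusted p-values, by edgeR, cannot be set against those of the main fit. That of Mettl14 was 1.97e-12 without the filter and 6.22e-04 with it, and that of Il17re 0.139 and 0.0334. Il1f6, another interleukin 36 agonist, had 1, 0 and 0 counts in controls and 7, 16 and 25 in mutants (adjusted p = 3.21e-08). Il12b, the subunit shared by interleukins 12 and 23, had 1, 0 and 1 against 5, 9 and 14 counts (adjusted p = 6.44e-04). Il1f9, also an interleukin 36 agonist, had 1, 0 and 0 against 5, 8 and 6 counts (adjusted p = 0.00491), and Il2ra, the interleukin 2 receptor alpha chain, had 3, 2 and 0 against 6, 6 and 11 counts (adjusted p = 0.0362). Mutants exceeded controls in every library for these 4 genes, at levels where fold sizes are not reliable. The remaining 30 with a count were the ligand genes Il2, Il3, Il4, Il5, Il6, Il9, Il10, Il13, Il17a, Il17b, Il17f, Il19, Il20, Il21, Il22, Il24, Il25, Il27, Il31, Csf2 and Csf3, the receptor genes Il1rapl1, Il1rapl2, Il9r, Il20ra, Il23r and Il31ra, and the antagonists or decoys Il1f5, Il13ra2 and Il22ra2. At this depth a change in them was not detectable.

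Genes that act behind these receptors were followed in 7 lists of pathway genes. Of their 82 genes 76 were tested, and 30 rose, 12 fell and 34 did not pass. The counts of each list stand beside 23.5% higher and 22.8% lower of all genes tested. Among 10 tested JAK kinases and STAT factors none rose and 4 fell. Tyk2 (log2 fold change -0.29) and Stat5b (-0.38) were among those that fell, and both changes were under 1.5-fold in size. Feedback inhibitors of cytokine receptors went the other way, with 6 of 12 higher and 1 lower. Socs1, which blocks JAK kinases, stood at 1.65, 1.48 and 1.39 CPM in the controls and 9.61, 8.51 and 8.76 CPM in the mutants (log2 fold change 2.57, SE 0.16, adjusted p = 2.72e-06). Socs2 and Socs6 rose by 1.16 and 1.02 on the log2 scale. The groups did not overlap for any of the 3 genes.

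Adaptors and kinases of the interleukin 1 receptors were mostly not past the threshold, since 10 of 14 missed it, 2 were higher and 2 lower. Traf6, the ubiquitin ligase that passes the signal on, rose (log2 fold change 1.08, SE 0.08, adjusted p = 7.02e-06), while the kinase gene Irak4 and the adaptor Tab1 fell (-0.50 and -0.63). Of 12 adaptors and response genes of the interleukin 17 receptors 9 rose, 1 fell and 2 did not pass. Ccl20, a chemokine that draws Ccr6-bearing cells, stood at 1.11, 0.563 and 1.29 CPM in the controls and 44.9, 64.01 and 53.2 CPM in the mutants (log2 fold change 5.78, SE 0.23, adjusted p = 1.53e-07). Tnfaip3, an inhibitor of NF-kB, and the adaptor Traf2 rose as well (1.32 and 0.53). Genes of this list also respond to other NF-kB signals.

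Response genes of interleukin 22 and STAT3 in gut epithelium included 4 of 11 that rose and 1 that fell, Reg3b. Reg3b stood at 164, 2166 and 1060 CPM in the controls and 222, 214 and 240 CPM in the mutants. The groups overlapped, with control 1 below every mutant, so the fall of Reg3b rests on controls 2 and 3. Bcl3 and Socs3 rose by 0.91 and 1.21 on the log2 scale. S100a8, a calcium-binding protein that neutrophils also make, rose from 0.0285, 0.0593 and 0 CPM to 0.733, 2.96 and 2.87 CPM (adjusted p = 2.18e-04), with too few counts in controls for a fold. Of 6 tested response genes of interleukins 4 and 13, 1 rose and 2 fell. Clca1, a goblet cell product, fell by 1.93 on the log2 scale, and Retnlb, an antibacterial goblet cell protein, fell by 0.56. Chil3, a chitinase-like protein of macrophages, rose from 0, 0 and 0.0644 CPM to 0.656, 0.3996 and 0.573 CPM (adjusted p = 9.80e-04). Of 12 tested related cytokines and receptors outside the symbol rule 9 rose and 1 fell. With Lifr and Osmr, Flt3l, a growth factor of dendritic cells, had the smallest p-values (2.11, 1.27 and 2.09 CPM in the controls and 13.4, 18.3 and 15.6 CPM in the mutants).

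**Figure D4:**
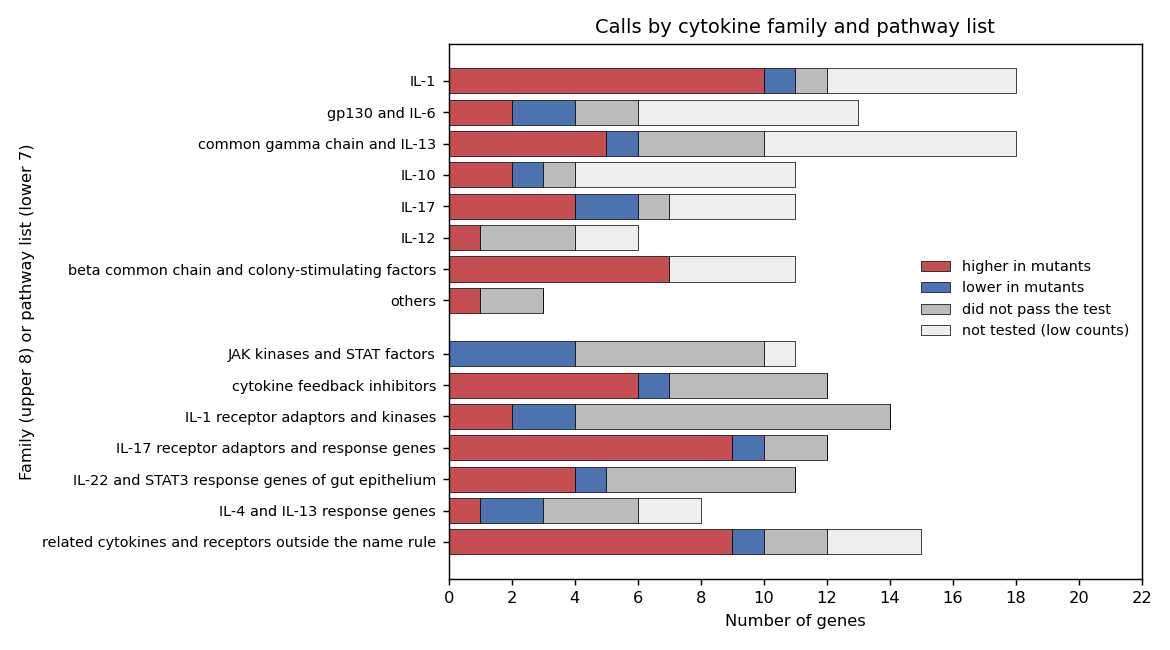
Number of genes (horizontal axis) that were higher, lower, not past the test or not tested in each of 8 cytokine families and 7 pathway lists (vertical axis). The beta common chain and colony-stimulating factor family has 7 genes higher and none lower. Some of the 7 passed the count filter through the mutants only. The JAK and STAT list has none higher and 4 lower.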

How the data were processed

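The deposited files hold raw counts of fragments per gene, 1 file per library. Per the submitters' processing notes, the authors used Trim Galore 0.6.5 and STAR 2.6.1d with the GRCm38 genome. They counted fragments with featureCounts 1.6.4 on GENCODE vM25, on the strand of read 1 and without reads that map to several places, per the file headers. Near-identical genes can lose reads by that setting.

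The analysis used edgeR 4.0.16 under R 4.3.3: filterByExpr (minimum count 10, minimum total 15) left 18539 genes, libraries were scaled by TMM, and genotype, the only term, was tested by the quasi-likelihood F test, 2-sided, with Benjamini-Hochberg adjustment over all genes tested and a threshold of 0.05. RPKM is CPM per kilobase of the deposited exon length. Alternatives were other scalings and filters, DESeq2 1.42.0, limma-voom (limma 3.58.1), a test against a 1.5-fold change, a replicate block and leaving out libraries. The fit was tested on simulated counts. Promoters come from RefSeq (GRCm38.p6) and transcripts, used for shared runs of 50 bases, from GENCODE vM21.

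Values in each library are given for called genes with a mean of at least 1 CPM in either group and for all with at least 10 CPM. Others are given by group mean, and each pathway list by the 3 genes with the smallest p, except that a few genes, counted in the totals, are not reported here. The genes described, the lists and these rules were chosen with earlier results of these data known. Library totals and the level that 3 counts allow are given with the results, and cover counting error only.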

Additional observations from a re-analysis of the deposited data

How the results depend on the processing

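The numbers of interleukin and receptor genes called higher stayed between 25 and 35 over all alternatives run, and none of the 53 changed direction in a call. Against a 1.5-fold change, edgeR called 25 higher and 4 lower among them, 1720 higher and 1027 lower among all genes, and 1 pathway gene lower, and Mettl14 (log2 fold change -0.85) had adjusted p = 0.0612. Without mutants 1 and 2 together 28 were higher and 4 lower (3353 and 3520 among all genes). Leaving out 1 library at a time gave 30 to 33 higher and 5 to 6 lower, 3574 to 4335 and 3448 to 4236 among all genes, 28 to 31 and 10 to 15 among pathway genes, and -0.94 to -0.72 for Mettl14. Other scalings shifted the median of all genes by at most 0.07. By DESeq2 34 were higher and 6 lower (3937 and 4239 among all genes), and with no filter 35 and 7 (4742 and 4632). A replicate block, which pairs libraries by their number, gave 31 higher and 6 lower (Il17re among the calls lost), and 3789 and 3614 among all genes. Same-numbered libraries deviated from their group means with correlations of -0.120, -0.0652 and -0.138, so the numbers were not taken to mark the 3 pairs of mice, which no label names. Depth limits the 38 genes that were not tested and the fold sizes of genes under 1 CPM in controls.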

Other observations

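Transcripts were also searched for GGACT, the commonest form of the sequence in which m6A is written, in the longest protein-coding transcript of each gene (GENCODE vM21). The median was 1.15 per kilobase over 31 interleukin and receptor genes that rose, 1.28 over the 7 that fell and 1.38 over the 14 that did not pass. Over all tested genes with such a transcript the medians were 1.12 for 3734 that rose, 1.00 for 3759 that fell and 1.05 for 6719 that did not pass. Of the genes described, 4 that rose and 1 that fell held no GGACT. These are counts of letters, given with no test, and m6A was not measured in these libraries.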
